A study of Bos taurus with 6 samples.

Results

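Cytochrome c oxidase, complex IV of the respiratory chain, is built around catalytic core subunits that are encoded in mitochondrial DNA. Read counts for its 3 mitochondrially encoded subunits, COX1 (ENSBTAG00000043561), COX2 (ENSBTAG00000043556) and COX3 (ENSBTAG00000043560), are described here in longissimus dorsi, a long back muscle, of Hanwoo (Korean cattle). The genes were chosen by their Ensembl IDs and make up 3 of the 24616 genes counted. All 3 passed the filter on low counts, which kept 12769 genes. The names came with the IDs and could not be checked, because the count files hold IDs only and the gene table used for names holds no Ensembl ID.

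Poly(A) RNA was sequenced from 6 male animals, 1 library each. Bulls 20, 22 and 23 were intact males, all sampled at 746 days of age. The other animals were steers (castrated males), sampled at 996 days (Steer 439), 950 days (Steer 456) and 930 days (Steer 458). Breed and tissue were the same in both groups. The age at castration is not given in the sources used here. The youngest steer was older than the bulls, and effects of castration and of age cannot be told apart. The labels name no batch, so no value within a batch could be given. Each animal was 1 replicate. The libraries held from 17027226 to 27490776 gene counts, and the groups overlapped in this total.

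Cytochrome c oxidase passes electrons from cytochrome c to oxygen and pumps protons across the inner mitochondrial membrane, and muscle fibres with a high oxidative capacity are rich in it. COX2 takes up the electrons at its copper centre, COX1 carries the heme groups where oxygen is reduced, and COX3 holds no redox centre and lies beside COX1 in the enzyme. Their mRNAs are cut from long transcripts of one strand of the mitochondrial DNA and carry poly(A) tails, so oligo-dT selection captures them. In the RefSeq gene table of the bovine assembly ARS-UCD2.0, the order along the mitochondrial genome is COX1, 2 tRNA genes, COX2, 1 tRNA gene, ATP8, ATP6 and COX3. COX1 and COX2 are thus separated by tRNA genes alone. On the side towards COX2, the direct neighbour of COX3 is ATP6, a subunit of ATP synthase. Whether counting used strand is not given in the sources used here, and reads from the opposite strand cannot be told apart. Reads that align to more than one place were counted for no gene. Copies of mitochondrial sequence in the nuclear genome can therefore lower these counts by an unknown amount.

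None of the subunits passed the test between bulls and steers. Bulls 20 and 23 had the highest levels of all of them, while Bull 22 lay at the level of the steers or below. The groups therefore overlapped in each subunit. Levels are given as CPM, each count as parts per 1e6 of its library's counts in the genes that passed the filter. These totals were TMM-scaled (factors that adjust each library's total). CPM is not divided by gene length, so levels are compared between libraries and not between subunits.

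COX1, the subunit in which oxygen is reduced, had 30113 CPM in Bull 20, 13731 in Bull 22 and 25805 in Bull 23. In steers it had 13480 CPM in Steer 439, 15970 in Steer 456 and 15490 in Steer 458. Bulls 20 and 23 stood above every steer, and Bull 22 fell between Steers 439 and 458. The group means were 23216 ± 8492 CPM in bulls and 14980 ± 1321 CPM in steers (SD, n = 3). The log2 fold change of bulls against steers was 0.63 ± 0.37 (SE), a 1.55-fold difference, with an edgeR adjusted p of 0.368.

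COX3 followed the same order of animals. It had 11193 CPM in Bull 20, 4087 in Bull 22 and 7229 in Bull 23, against 3872 in Steer 439, 5054 in Steer 456 and 4299 in Steer 458. Its log2 fold change was 0.77 ± 0.39 (SE), a 1.70-fold difference, with an edgeR adjusted p of 0.302. From the lowest to the highest library, the order was Steer 439, Bull 22, Steer 458, Steer 456, Bull 23 and Bull 20 for both COX1 and COX3.

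COX2, the subunit that receives electrons from cytochrome c, had the smallest fold between the group means. It had 5306 CPM in Bull 20, 2266 in Bull 22 and 4408 in Bull 23. The steers had 3130 CPM (Steer 439), 3060 CPM (Steer 456) and 3821 CPM (Steer 458). Bull 22 was here the lowest of all animals, below each steer. The log2 fold change was 0.26 ± 0.36 (SE), a 1.20-fold difference, with an edgeR adjusted p of 0.718.

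**Figure D1:**
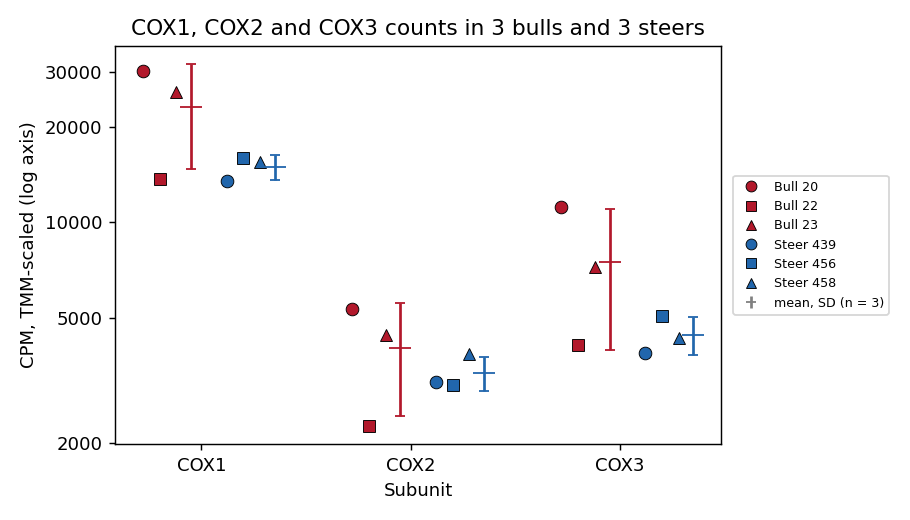
TMM-scaled CPM (log axis) of COX1, COX2 and COX3 in each of the 3 bulls (red) and 3 steers (blue), with the group mean and SD beside the points. Bulls 20 and 23 lie above all steers for each subunit, while Bull 22 lies among the steers for COX1 and COX3 and below them for COX2.

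Thus edgeR called 0 of the 3 subunits at an adjusted p under 0.05, where it called 4.10% of all tested genes in either direction. At an unadjusted p under 0.05 there were 0 of 3, against 22.4% of all tested genes. DESeq2 also called 0 of 3 after adjustment (10.1% of its tested genes). At an unadjusted DESeq2 p under 0.05 there were 2 of 3, COX1 (0.0434) and COX3 (0.0312), against 17.4% of its genes. limma voom called 0 of 3 (adjusted p 0.377 to 0.813), against 3.36% of all tested genes. The CPM values of the groups did not overlap in 29.6% of the tested genes and in 0 of the 3 subunits. The median log2 fold change over all tested genes was -0.0087, near 0. In bulk muscle, fewer cells or fibres of a type and less RNA per cell cannot be told apart.

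Single bulls moved these values. Without Bull 20 the log2 fold changes of COX1, COX2 and COX3 were 0.39, -0.00285 and 0.35, and without Bull 22 they were 0.89, 0.53 and 1.05. Without Bull 23 that of COX2 was 0.17. In the fit without Bull 22 the unadjusted edgeR p was 0.0345 for COX1 and 0.0201 for COX3, against 15.9% of all genes tested there under 0.05, and the adjusted p was 0.27 and 0.23. Each of the 14 other fits called 0 of the 3 subunits, but the share of all tested genes that a fit called varied widely. With edgeR it was 0.0769%, 0.0531% and 0.0532% without Bull 20, 22 or 23, and 0.591% without Steer 458, so a count of 0 says little in these fits. Without Steer 439 or Steer 456 it was 7.67% and 7.77%, against 4.10% with all animals. With all animals it was 3.70% with DESeq2's size factors, 2.91% with library size alone, 3.68% with upper-quartile factors, 2.81% without a filter, 3.81% with at least 1 CPM in 3 libraries and 3.49% with the subunits left out of the total.

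**Figure D2:**
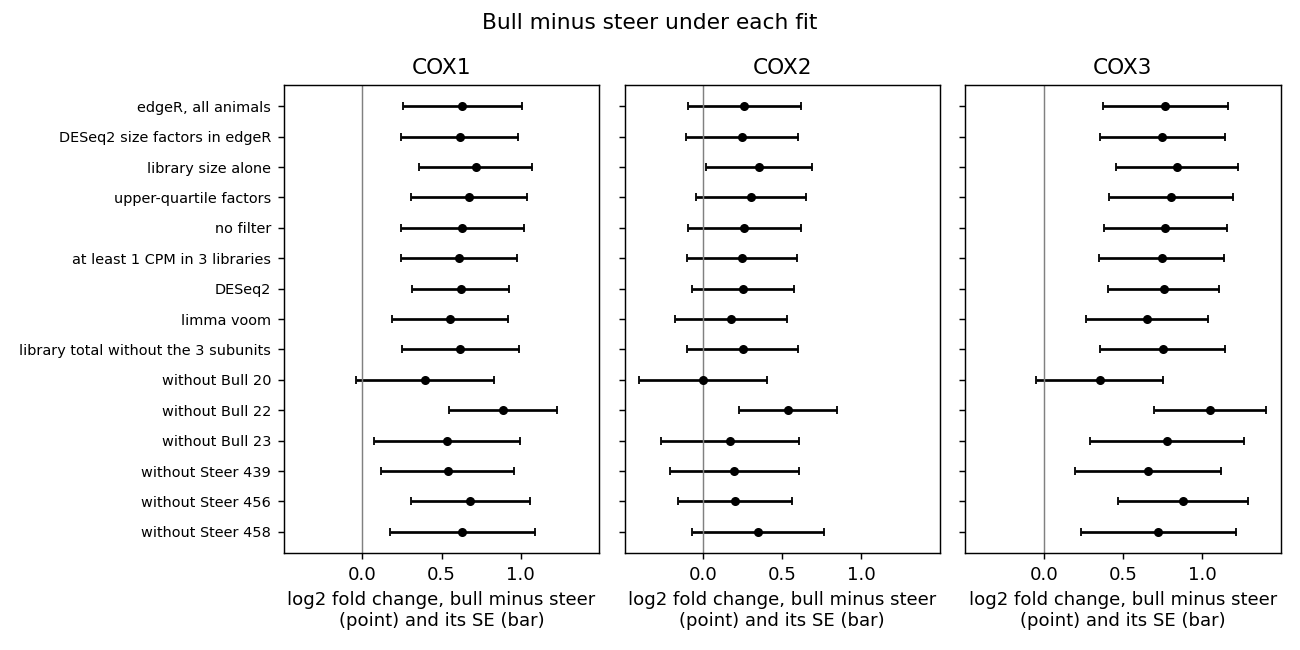
Log2 fold change of bulls against steers (points) with its SE (bars) for each subunit, with all animals in edgeR, under 8 other settings and without each animal. The point of COX2 lies at 0 when Bull 20 is left out, and all points of COX1 and COX3 lie above 0.

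The subunits together held a share of all gene counts that ranged more widely among the bulls than the group means lay apart. This share reached 4.64% in Bull 20 and 4.03% in Bull 23, but 2.05% in Bull 22. Steers 439, 456 and 458 had 2.02%, 2.51% and 2.10%, close to Bull 22. The 95% Wilson intervals of these shares were at most ± 0.00884 percentage points and cover counting error only. The mean was 3.57% ± 1.35 for bulls and 2.21% ± 0.261 for steers (SD, n = 3 per group; exact 2-sided permutation p = 0.3, where the smallest possible is 0.1). The difference of 1.36 percentage points became 0.83 without Bull 20 and 2.12 without Bull 22. COX1 alone held 2.39% ± 0.865 in bulls and 1.46% ± 0.18 in steers (SD, n = 3). By read count, without correction for length, it ranked between place 2 (Bull 20) and place 10 (Bull 22 and Steer 439) among all genes of a library. COX3 ranked between 12 and 50, and COX2 between 29 and 56.

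The spread between animals was wide in bulls and narrow in steers, whereas 80.4% of the tested genes spread more in steers. The SD of log2 CPM among the bulls was 0.60 for COX1, 0.65 for COX2 and 0.73 for COX3, against a median of 0.18 over all tested genes. Of the tested genes, 93.7%, 94.7% and 96.2% had a smaller SD in bulls than COX1, COX2 and COX3. Among the steers the SDs were 0.13, 0.18 and 0.19, against a median of 0.39, and only 8.44%, 15.1% and 17.7% of the tested genes had a smaller one. These SDs rest on 3 animals each, are given as a description and were not tested. Without Bull 22 the SDs of the other two bulls were 0.16 for COX1, 0.19 for COX2 and 0.45 for COX3, against a median of 0.13, so the wide spread of COX1 and COX2 rested on the distance between this bull and the other two. Without Steer 456 the SDs of the other two steers were 0.14, 0.20 and 0.11 for COX1, COX2 and COX3, against a lower median of 0.24, and 31.6%, 43.7% and 24.1% of the tested genes had a smaller one. The narrow spread of COX2 relative to other genes was thus largely lost without this steer. Without Steer 458 these shares of genes were 25.6% for COX1, 3.76% for COX2 and 38.1% for COX3. Without Steer 439 they were 4.69%, 32.7% and 23.8%. The place of each subunit among the tested genes thus depended on the steer left out. Each subunit had at least 44401 reads in every library.

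**Figure D3:**
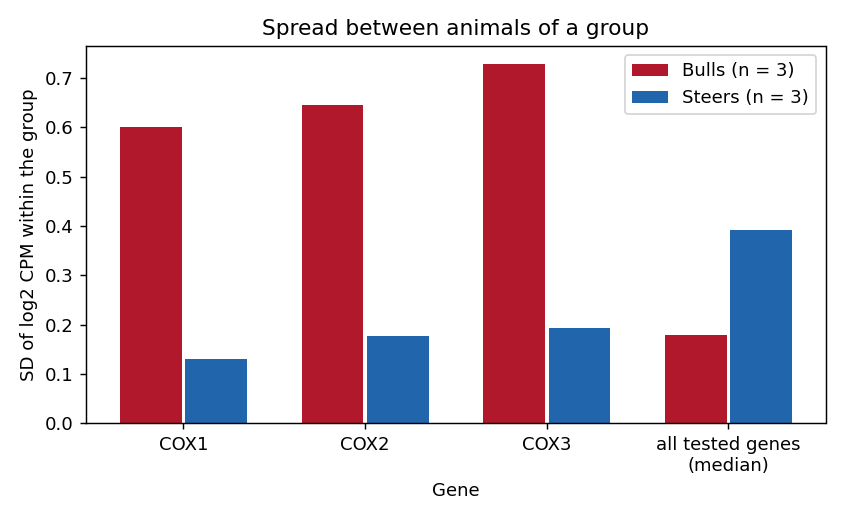
SD of log2 CPM among the 3 bulls (red) and among the 3 steers (blue) for each subunit, beside the median SD of all 12769 tested genes. The subunits have the larger SD in bulls, from 0.60 to 0.73, while the median gene has the larger SD in steers.

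The balance between the subunits was examined with ratios of read counts within a library, which do not depend on sequencing depth or scaling. Because the counts are not divided by gene length, a ratio is compared between animals and is no ratio of transcript numbers. COX1 had 5.67 reads per COX2 read in Bull 20, 6.06 in Bull 22 and 5.85 in Bull 23. The steers had 4.31 (Steer 439), 5.22 (Steer 456) and 4.05 (Steer 458). Every bull thus lay above every steer, and the bulls lay close together although their COX1 levels differed up to 2.19-fold. The log2 ratio was 2.55 ± 0.05 in bulls and 2.17 ± 0.19 in steers (SD, n = 3), a difference of 0.38 or 1.30-fold. The exact 2-sided permutation p was 0.1, the smallest that 3 animals against 3 can give, and 0.3 after Benjamini-Hochberg adjustment over the 3 ratios. The counting error of a single log2 ratio was at most 0.0085. For comparison, 3.79% of the other tested genes had a ratio to COX2 that was higher in every bull than in every steer, and 5.54% had one that was higher in every steer.

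COX2 relative to COX3 was lower on average in bulls, with a small overlap. There were 0.474, 0.554 and 0.610 COX2 reads per COX3 read in Bulls 20, 22 and 23, and 0.808, 0.606 and 0.889 in Steers 439, 456 and 458. Only Steer 456 fell into the range of the bulls, just below Bull 23. The difference of the log2 ratios was -0.48 (exact permutation p = 0.2, adjusted 0.3, n = 3 per group). COX1 relative to COX3 overlapped widely, with 2.69 to 3.57 reads per COX3 read in bulls and 3.16 to 3.60 in steers (difference of log2 ratios -0.10, exact permutation p = 0.6, adjusted 0.6). Bull 20 had the lowest of these ratios, 2.69, and without it the difference turned to 0.0226.

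Expressed as parts of the counts of all 3 subunits, COX2 made up 11.5% ± 0.259 in bulls and 14.7% ± 1.80 in steers (SD, n = 3). Single values ran from 11.3% to 11.8% in bulls and from 12.7% in Steer 456 to 16.2% in Steer 458. COX1 made up 67.3% ± 2.35 and 65.9% ± 0.361, and COX3 21.2% ± 2.47 and 19.4% ± 1.44. These parts are another form of the same ratios and no further evidence. Reads over more than one gene, which were counted for none, equalled 0.845% ± 0.112 of a bull's gene counts and 0.654% ± 0.0276 of a steer's (SD, n = 3), without overlap between the groups. Their part in the ratios was not tested. Reads aligned to more than one place made up 24.5% to 28.2% of all lines counted in bulls and 16.9% to 27.4% in steers, and their part was not tested either.

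**Figure D4:**
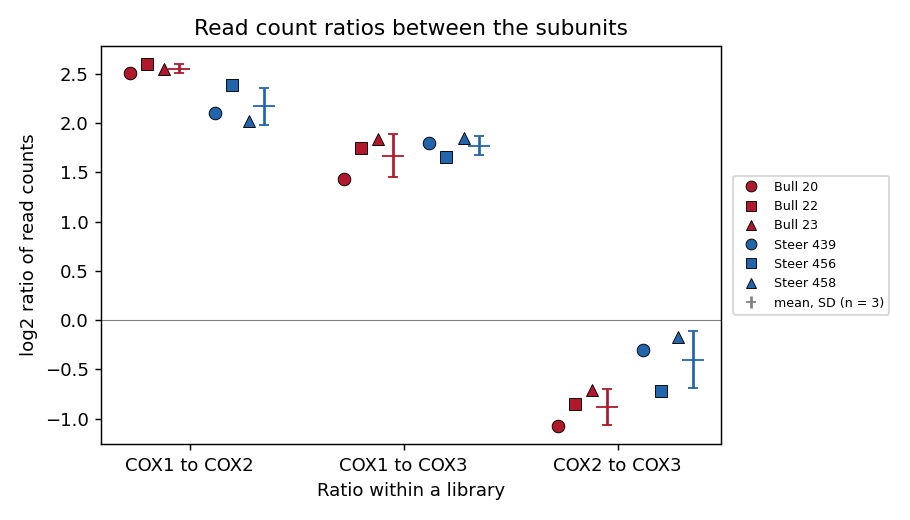
Log2 ratio of read counts between pairs of subunits within each library, for 3 bulls (red) and 3 steers (blue), with group mean and SD. In COX1 to COX2 all bulls lie above all steers, in COX2 to COX3 Steer 456 meets the bulls, and in COX1 to COX3 the groups overlap.

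Of the pairs of subunits, COX1 and COX3 had the highest correlation across the libraries. Over the 6 libraries, log2 CPM of COX1 and COX3 gave a Pearson r of 0.975 (exact permutation p = 0.00139, adjusted over 3 pairs 0.00417) and a Spearman rho of 1 (exact permutation p = 0.00278, adjusted 0.00833). For COX1 and COX2, r was 0.871 (exact permutation p = 0.0139, adjusted 0.0208) and rho 0.714 (exact permutation p = 0.136, adjusted 0.136). COX2 and COX3 gave r = 0.828 (exact permutation p = 0.0431, adjusted 0.0431) and rho = 0.714 (exact permutation p = 0.136, adjusted 0.136). These coefficients pool bulls and steers with no term for group. Every bull lay above every steer in COX1 reads per COX2 read, and such a shift between the groups enters the pooled values of COX2. Whether the coefficients differ from one another was not tested.

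The libraries were spread unevenly along these relations. In COX1, Bulls 20 and 23 stood 0.69 log2 units or more above the other animals, which lay within a narrow range. Without the pair of libraries farthest from the median of the first-named subunit, r over the remaining 4 was 0.886 for COX1 and COX3 and 0.544 for COX1 and COX2 (both without Bulls 20 and 23), and 0.70 for COX2 and COX3 (without Bulls 20 and 22). Without Bulls 20 and 23, r thus fell more for COX1 and COX2 (from 0.871) than for COX1 and COX3 (from 0.975). The fall for COX2 and COX3 (from 0.828) cannot be set beside these, because a different pair of bulls was left out. Which pair was left out depended on the subunit named first. With any 1 animal left out, r was 0.758 to 0.932 for COX1 and COX2 and 0.669 to 0.913 for COX2 and COX3, both lowest without Bull 20 and highest without Steer 458. With 5 animals the adjusted exact permutation p of these pairs was 0.05 to 0.25, also where r was higher than with all 6. COX1 and COX3 kept r of 0.97 or more (exact permutation, adjusted p 0.025). Groups of 3 animals are too few for a correlation within bulls or within steers. All values of a library share its RNA sample, depth and scaling.

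**Figure D5:**
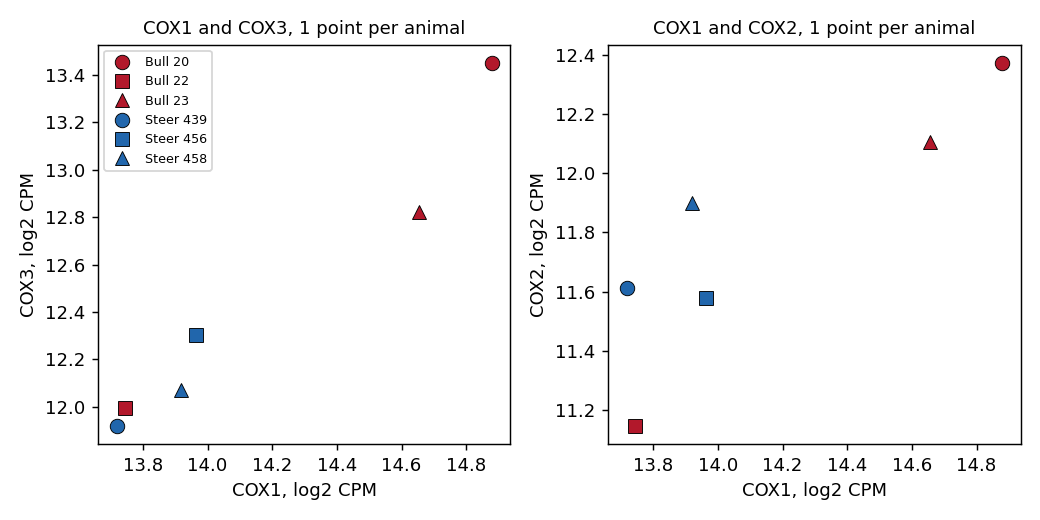
Log2 CPM of COX3 (left) and COX2 (right) against COX1, with 1 point per animal, bulls in red and steers in blue. COX3 keeps the order of COX1 in all 6 animals, whereas among the 3 steers and Bull 22 COX2 varies with little change in COX1.

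Among the 6666 genes with a mean of at least 10 CPM that were compared with COX1, COX3 was the one most correlated with it, and COX1 was likewise the first for COX3. COX2 took place 34 for COX1 and place 68 for COX3. Compared with the mean log2 CPM of all 3 subunits, 15 of 6664 other genes reached r = 0.9 or more over the 6 libraries. The highest r was that of ENSBTAG00000021658 (r = 0.967), with 30.2, 13.5 and 20.8 CPM in Bulls 20, 22 and 23 and 14.7, 14.8 and 18.0 CPM in Steers 439, 456 and 458. Next was ENSBTAG00000043550 (r = 0.955), an abundant gene with 7500, 2756 and 5314 CPM in the bulls and 3710, 4161 and 4477 CPM in the steers. Both had their highest values in Bulls 20 and 23, like all 3 subunits, and their lowest in Bull 22, like COX2 alone. Neither passed the test between the groups (edgeR adjusted p = 0.411 and 0.658). The sources used here do not pair these IDs with names. Both were picked as the highest of 6664 coefficients over 6 libraries that share depth and scaling, and are given as a description.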

How the data were processed

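The authors deposited raw read counts per Ensembl gene, 1 file per animal, with no normalization. FastQC, TopHat2 2.0.2, HTSeq 0.5.3p3 and the build UMD3.1 are named in the submitters' processing notes. The sources used here give neither the annotation release nor the overlap mode. The 5 HTSeq summary lines (29.3% to 39.9% of all lines counted) were kept out of totals and tests. The members and lists were chosen with earlier results of these data known.

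Bulls and steers were compared in 1 model of all 6 libraries with group as its sole term: edgeR 4.0.16 quasi-likelihood F test in R 4.3.3, TMM factors, filterByExpr, robust estimates, and p adjusted by Benjamini-Hochberg over all tested genes, with 0.05 as the threshold. The SE was derived from the fold change and the square root of the F statistic. The fit was also run on simulated data to check the code, and its power at the folds of the subunits is not given here. Log2 CPM used a prior count of 2. Shares and ratios were compared with exact 2-sided permutation tests (SciPy 1.17.1). Alternatives were other scaling factors, filters and totals, DESeq2 1.42.0, limma 3.58.1 (voom) and leaving out each animal.

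The rule for named genes gave the 3 subunits and the genes most like their mean in log2 CPM, limited to 2 IDs. Its part on pathway lists was not used: 0 of 24616 IDs matched the gene table, so none of the 10 pathway lists and 9 marker lists fixed by symbol could be applied, and the labelled tissue could not be checked against markers. Spreads, ratios to COX2 over all genes and library measures were added after seeing the data.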

Additional observations from a re-analysis of the deposited data

How the results depend on the processing

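No paired analysis was possible because bulls and steers share no animal numbers. Under 8 other settings of scaling, filter, total and tool, the log2 fold change was 0.55 to 0.72 for COX1, 0.18 to 0.35 for COX2 and 0.65 to 0.84 for COX3, with adjusted p from 0.173 to 0.813, while these settings called between 2.81% and 10.1% of all tested genes. With each animal left out, it ranged from 0.39 to 0.89 for COX1, from -0.00285 to 0.53 for COX2 and from 0.35 to 1.05 for COX3, so the direction of COX2 turned without Bull 20 (-0.00285). The shared percentage differed by 0.83 to 2.12 percentage points with one animal left out and did not pass with another total or on a log2 scale (exact permutation p 0.2 to 0.4). Ratio differences (log2) then ran from 0.31 to 0.49 for COX1 to COX2, from -0.64 to -0.37 for COX2 to COX3, and from -0.18 to 0.0226 for COX1 to COX3, which turned without Bull 20. With 5 animals, r was 0.97 to 0.994 for COX1 and COX3 and stayed past the threshold (exact permutation, adjusted p 0.025). It was 0.758 to 0.932 for COX1 and COX2 and 0.669 to 0.913 for COX2 and COX3, with adjusted exact permutation p of 0.05 to 0.25, also where r exceeded its value over all 6. CPM without the log and library size alone kept Pearson r of all 3 pairs past the threshold. Spearman rho was not examined under other settings. The alternatives for pathway lists were not run, since the lists were not. Depth limits none of these values: each subunit had at least 44401 reads per library. The number of animals does limit them, since 3 against 3 cannot give an exact permutation p below 0.1.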

Other observations

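The joint share of the subunits was set beside 3 measures of the libraries, chosen after seeing the data. With the share of reads over more than one gene, Pearson r was 0.954 (exact permutation p = 0.0194, adjusted 0.0583) and Spearman rho 0.771 (exact permutation p = 0.103, adjusted 0.308) over 6 libraries. Both of these shares are divided by the same total, the gene counts of the library. Without Bulls 20 and 23, which had the highest values of both, r was -0.0561, so the relation rests on these bulls. With the share of reads aligned to more than one place, r was 0.139 and rho -0.0286 (exact permutation p = 0.888 and 1, adjusted 0.888 and 1). With the total of gene counts, r was -0.263 and rho -0.2 (exact permutation p = 0.629 and 0.714, adjusted 0.888 and 1). Without the 2 farthest libraries these r became -0.883 and 0.748, in 4 libraries each.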
